A study of Mus musculus with 2 samples.

Results

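The mitochondrial import translocase genes encode the subunits of the TOM and TIM complexes, and 25 protein-coding mouse genes make up the set: 15 whose RefSeq symbol is Timm followed by a digit and 10 whose symbol is Tomm followed by a digit. They were set against all 21887 protein-coding genes on the assembled nuclear chromosomes of GRCm38. The values are positions, widths and scores of peaks from a chromatin immunoprecipitation for Usp16, which removes ubiquitin from histone H2A, and the study's stated aim was to find the genes enriched for it. A peak was assigned to a gene, and is called a gene-end peak, if at least 1 bp of it fell within 1 kb of an annotated end of that gene.

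The chromatin came from bone marrow cells selected for c-Kit and Sca-1, a fraction enriched for blood stem and progenitor cells. The study has 2 libraries, 1 made with the anti-Usp16 antibody and 1 with IgG, both from the same kind of cells of mice with the genotype Mx1 Cre:Usp16loxp/loxp. Mx1-Cre is a recombinase under an interferon-inducible promoter that is active in many cell types besides blood cells. The labels say neither whether it had been induced nor how old the mice were or how many were pooled, so whether the cells held Usp16 is not known, and the peaks are those of the library made with this antibody, no more. A peak list has no expression values, so the cell type could not be checked against its markers. With 1 library per antibody there is no replicate error, and no difference below has a test across samples. The list holds 5079 peaks, of which 5046 lie on the assembled chromosomes. Read depth is unknown, the IgG signal was not analysed here, and the lowest score listed is 50, so that a gene without a listed peak is not shown to lack Usp16.

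Nearly all mitochondrial proteins are made in the cytosol and cross the outer membrane through the TOM complex, whose channel is Tomm40. The TIM23 complex then passes proteins with a presequence across or into the inner membrane, the TIM22 complex inserts carrier proteins there, and small TIM chaperones escort hydrophobic proteins through the space between the membranes. Blood stem cells are known for keeping their mitochondria at low activity, and mitochondrial activity rises as they differentiate.

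Of the 25 import translocase genes, 12 carried a gene-end peak (48.0%, exact 95% interval 27.8 to 68.7%), where 13.9% of all protein-coding genes did (3033 of 21887). The inner membrane and intermembrane space genes carried peaks at 9 of 15 (60.0%, interval 32.3 to 83.7%) and the Tomm genes at 3 of 10 (30.0%, interval 6.67 to 65.2%). These intervals overlap and cover counting error over genes only, and genes are not replicates. The Timm genes that carried a peak were Timm9, Timm10, Timm17a, Timm17b, Timm21, Timm22, Timm29, Timm44 and Timm50, and the Tomm genes were Tomm5, Tomm22 and Tomm40l. Each of the 12 genes had 1 gene-end peak, and no peak served 2 of these genes. However, 6 of the 12 peaks also reached an end of another protein-coding gene, where 24.9% of all peaks at protein-coding gene ends did.

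**Figure D1:**
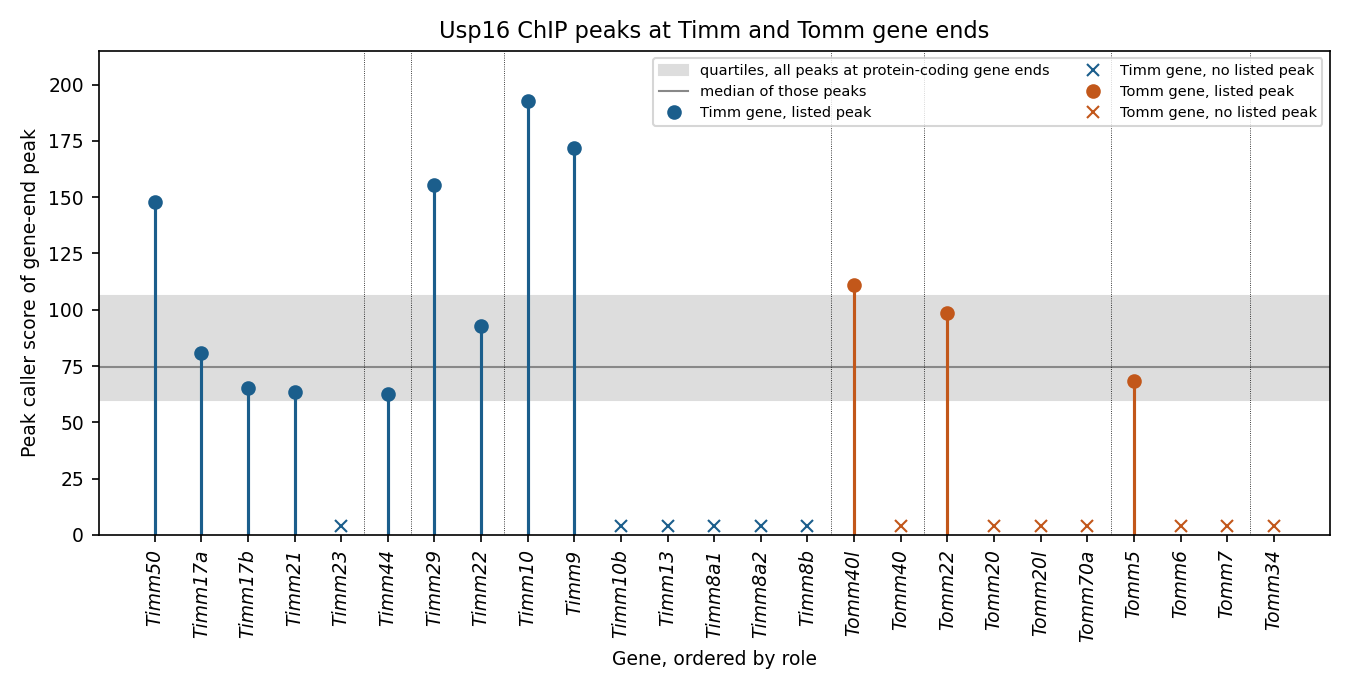
Peak caller score (y axis, no unit) of the gene-end peak of each of the 25 genes (x axis), ordered by role and by score within a role, with dotted lines between roles; circles are listed peaks, crosses near 0 are genes with no listed peak, and the grey band and line give the quartiles and median of all peaks at protein-coding gene ends. Among the Timm genes outside the small TIM chaperones only Timm23 has no peak, and 7 of the 10 Tomm genes have none. The Timm44 peak lies outside that gene, 475 bp beyond its end and inside Ctxn1. Of all protein-coding genes 13.9% have a gene-end peak.

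The promoters below are shown because they set genes with and without a peak side by side, from RefSeq on GRCm38.p6. Each run is the 250 bases before the annotated start, read 5′ to 3′ in the direction of transcription. Capitals mark the letters of motifs searched on both strands: CCGGAAG, bound by ETS factors such as GABPA; the NRF1 core, found here as GCGCGTGCGC; CCAAT, bound by NFY; and AAGATGGC, bound by YY1. ETS factors and NRF1 are known as activators of many nuclear genes for mitochondrial proteins. The first 3 genes carried a peak over the start and the other 3 carried none.
Timm10 (chr2:84826771-84827020, + strand): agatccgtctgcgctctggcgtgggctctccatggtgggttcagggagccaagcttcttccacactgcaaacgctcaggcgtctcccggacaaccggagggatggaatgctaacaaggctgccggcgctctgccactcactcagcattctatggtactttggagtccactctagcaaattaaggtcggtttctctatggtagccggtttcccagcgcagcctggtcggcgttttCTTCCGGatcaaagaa
Tomm22 (chr15:79670618-79670867, + strand): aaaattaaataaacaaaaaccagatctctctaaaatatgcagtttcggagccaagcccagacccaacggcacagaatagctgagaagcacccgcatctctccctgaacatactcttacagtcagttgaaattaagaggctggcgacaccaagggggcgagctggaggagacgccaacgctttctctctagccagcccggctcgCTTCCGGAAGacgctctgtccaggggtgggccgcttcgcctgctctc
Timm50 (chr7:28312047-28312296, - strand): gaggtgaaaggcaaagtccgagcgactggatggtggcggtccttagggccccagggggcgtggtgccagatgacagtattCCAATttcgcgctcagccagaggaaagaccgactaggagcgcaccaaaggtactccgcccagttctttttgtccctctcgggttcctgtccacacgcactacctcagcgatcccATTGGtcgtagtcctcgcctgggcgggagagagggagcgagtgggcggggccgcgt
Timm23 (chr14:32201892-32202141, - strand): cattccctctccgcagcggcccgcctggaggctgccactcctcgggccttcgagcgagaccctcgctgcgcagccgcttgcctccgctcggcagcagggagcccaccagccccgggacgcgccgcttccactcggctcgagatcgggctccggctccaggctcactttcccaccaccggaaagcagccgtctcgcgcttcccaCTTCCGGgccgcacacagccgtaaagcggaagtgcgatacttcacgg
Tomm40 (chr7:19715430-19715679, - strand): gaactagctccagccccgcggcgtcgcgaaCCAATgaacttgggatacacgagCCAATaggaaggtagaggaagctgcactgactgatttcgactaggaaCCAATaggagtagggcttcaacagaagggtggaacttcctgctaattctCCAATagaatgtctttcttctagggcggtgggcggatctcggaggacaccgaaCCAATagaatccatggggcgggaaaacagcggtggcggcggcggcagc
Tomm20 (chr8:126945922-126946171, - strand): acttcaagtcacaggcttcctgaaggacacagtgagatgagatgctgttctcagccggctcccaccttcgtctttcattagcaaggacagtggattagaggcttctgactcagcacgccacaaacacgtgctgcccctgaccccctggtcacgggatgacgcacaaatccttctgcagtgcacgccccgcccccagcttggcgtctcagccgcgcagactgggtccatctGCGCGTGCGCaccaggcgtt

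The promoter of Timm10 held the ETS letters at position -16, counted back from the start, and also after it, at 14 and 17. Tomm22 held them at -47 and -44 in overlapping copies on opposite strands, which share letters in the run above, and at 6. Timm23, with no peak, also held them, at -47 and 11. Tomm40 held 5 copies of CCAAT in its 250 bases, between -220 and -48, and carried no peak, while Timm50 held 2, at -170 and -56, with the YY1 letters at 12, and carried one. Tomm20 held the NRF1 letters at -20 and carried none. The motif letters thus stood in promoters with and without a peak, and a match is a description of the letters only.

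Of the 5 genes of the TIM23 complex 4 carried a peak. Timm50, the receptor that takes over presequence proteins from TOM, had the highest score of them, 148, in a peak 682 bp wide on chromosome 7 (28311788 to 28312469). Timm17a, which together with Timm23 forms the core of the translocase, had a peak of score 81.0 and width 980 bp on chromosome 1 (135313126 to 135314105). The X-linked Timm17b, its paralog, had a weaker and narrower one of score 65.4 and 512 bp (chromosome X, 7898854 to 7899365), the narrowest of the 12. Timm21, which links the TIM23 complex to TOM, had a peak of score 63.6 and 853 bp on chromosome 18. Timm23 itself had none: the closest midpoint, of a peak at Ncoa4, was 20.3 kb off. Its start lies 39 bp from that of Parg on the other strand, and no peak was listed at either start.

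Both TIM22 genes carried peaks. Timm29, a subunit of this translocase in animals, had a peak of score 155 and 1061 bp, the widest of the 12 (chromosome 9, 21592138 to 21593198). Timm22, the channel-forming subunit, had one of score 92.7 and 1027 bp on chromosome 11 (76406517 to 76407543). For Timm44, which anchors the mitochondrial Hsp70 motor at the TIM23 channel, the only peak assigned lay outside the gene. It had score 62.6, the lowest of the 12, and a width of 940 bp (chromosome 8, 4258317 to 4259256), and its edge was 475 bp away from the end of Timm44 transcription. This peak lies inside Ctxn1, the next gene on the same strand, ending 18 bp short of the Ctxn1 start, and no peak reached the start of Timm44.

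The small TIM chaperones split. Timm9 and Timm10, which form a hexameric chaperone together, had the highest scores of all 25 genes: 172 for Timm9 (1032 bp, chromosome 12, 71136413 to 71137444) and 193 for Timm10 (726 bp, chromosome 2, 84826507 to 84827232). Of the peaks at protein-coding gene ends, 93.6% had a lower score than that at Timm9 and 95.8% a lower score than that at Timm10. The other 5 carried none. These are Timm8a1, the mouse counterpart of the human deafness-dystonia gene, and Timm13, which pair in a second chaperone complex, together with Timm8a2, Timm8b and Timm10b, a subunit at the TIM22 complex. Their nearest peak midpoints lay 44.0 kb (Timm8a1), 60.0 kb (Timm13), 149 kb (Timm8a2), 12.1 kb (Timm8b) and 80.6 kb (Timm10b) away. Without the small TIM chaperones, 7 of 8 Timm genes carried a peak (87.5%, interval 47.3 to 99.7%), against 3 of 9 Tomm genes when the cytosolic Tomm34 was left out (33.3%, interval 7.49 to 70.1%). These intervals overlap as well, and the share over all protein-coding genes was 13.9%. The 8 genes include Timm44 with its peak at Ctxn1, and 3 of their 7 peaks also reached an end of another coding gene.

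At the outer membrane each kind of subunit had 1 gene with a peak. Among the receptors it was Tomm22, the central receptor that also organises the complex, with a peak of score 98.8 and 588 bp (chromosome 15, 79670515 to 79671102). Tomm20, the presequence receptor, Tomm70a, the receptor for carrier precursors, and the Tomm20 paralog Tomm20l had none. From Tomm20 to the closest peak midpoint it was 25.2 kb, from Tomm70a 76.7 kb and from Tomm20l 13.7 kb. The midpoint nearest to Tomm20l belongs to the Timm9 peak: these genes overlap at their far ends on opposite strands, and no peak was listed there. Of the small subunits, Tomm5 had a peak of score 68.2 and 603 bp (chromosome 4, 45107870 to 45108472), while Tomm6 and Tomm7 had none, with the closest midpoints 75.2 kb from Tomm6 and 51.3 kb from Tomm7.

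The channel gene Tomm40 had none, with the closest midpoint 35.8 kb off at Clptm1, though its paralog Tomm40l had one of score 111 and 907 bp (chromosome 1, 171222216 to 171223122). Tomm34, which encodes a cytosolic protein that binds Hsp70 and Hsp90, had none in its windows either. Its nearest midpoint, 2.97 kb from the gene, belongs to a peak of score 73.7 at Stk4. By the gap from gene end to peak edge, which decides the assignment, Timm44 was therefore the gene just inside, at 475 bp, and Tomm34 the one just outside, at 2690 bp. The other 12 genes without a peak lay more than 10 kb from any peak midpoint, and none of the 13 held a peak inside the gene.

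**Figure D2:**
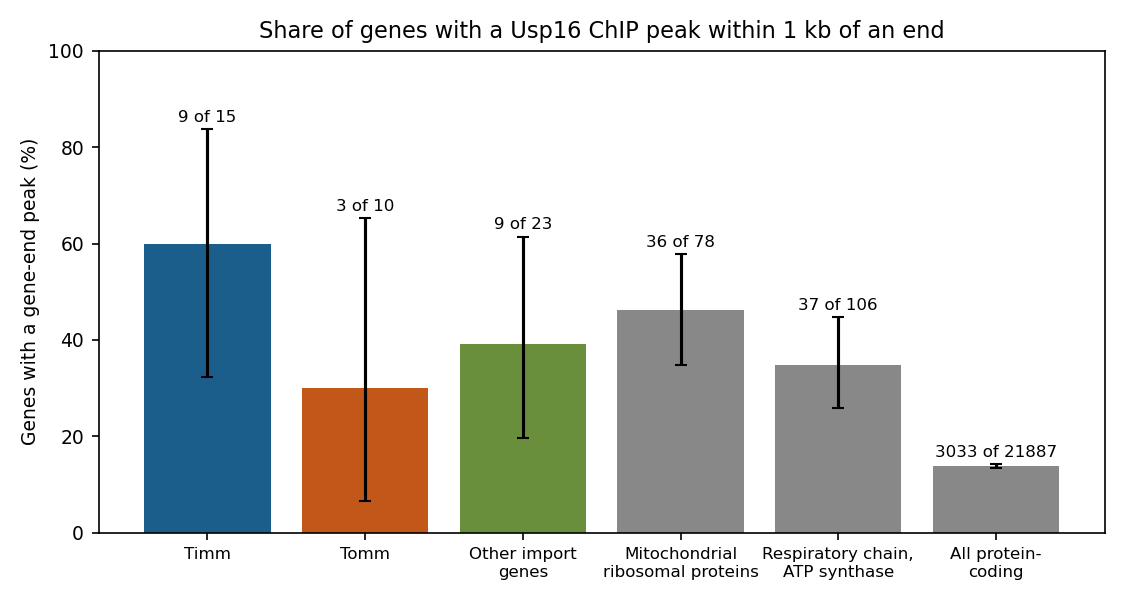
Percent of genes with a gene-end peak (y axis) for the Timm and Tomm genes, the other import genes, 2 further sets of nuclear genes for mitochondrial proteins and all protein-coding genes; error bars are exact 95% intervals of counting error and the numbers above the bars are genes with a peak of all genes in the set. Timm genes stand at 60.0% and Tomm genes at 30.0%, against 13.9% of all protein-coding genes.

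Import factors outside the Timm and Tomm names carried peaks at 9 of 23 genes (39.1%, interval 19.7 to 61.5%), through 8 peaks. Agk, a lipid kinase that is also a subunit of the TIM22 complex, had the highest score, 137. Oxa1l, the insertase for proteins coming from the matrix, followed with 91.5, then Hspa9, the mitochondrial Hsp70 of the import motor, with 82.6. Chchd4, the oxidoreductase that traps small TIM proteins between the membranes, had 76.7 in a peak that also reached Tmem43. The rest scored under the list's median of 70.1: Mipep, a presequence-processing peptidase, 58.1, Grpel2, a nucleotide exchange factor of the mitochondrial Hsp70, 56.8, Timmdc1, a TIM family protein known as an assembly factor of respiratory complex I, 52.6, and the chaperonin pair Hspd1 and Hspe1, which share a peak, 52.2. The other 14 had none, among them Samm50, the outer membrane insertase for beta-barrel proteins, the motor subunit Pam16, and both subunits of the matrix processing peptidase, Pmpca and Pmpcb. The median score was 95.7 over the 12 Timm and Tomm peaks and 67.4 over the 8 peaks of these factors.

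Other nuclear genes for mitochondrial proteins carried peaks in shares like that of the import translocase genes. Beside the 48.0% of the 25 genes stood 46.2% of 78 mitochondrial ribosomal protein genes (interval 34.8 to 57.8%) and 34.9% of 106 respiratory chain and ATP synthase genes (interval 25.9 to 44.8%), chosen by symbol. The former took symbols of Mrpl or Mrps and a digit. The latter took symbols starting with Nduf, Uqcr, Atp5, or Cox and a digit, with Sdha, Sdhb, Sdhc, Sdhd and Cyc1. This rule is not limited to subunits and also takes assembly factors with such names. The median scores of these sets were 97.4 and 87.7, beside 95.7 at the import translocase genes. The 3 intervals overlap, and the differences were not tested.

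Where strand could be read, all but 1 of the peaks lay on the start of transcription. RefSeq promoter entries, which give strand and start, were matched by gene ID for 22 of the 25 genes, all but Timm21, Tomm7 and Tomm40l. Of the 10 matched genes with a gene-end peak, 9 carried it over the annotated start and Timm44 near the other end. All 9 peaks covered the start, with the midpoint 54 to 226.5 bp away from it (median 105 bp). In 7 of them the midpoint lay before the start, and in Timm22 and Timm17a it lay 105 and 121.5 bp into the gene. They reached 353 to 736 bp upstream and 29 to 618 bp downstream, and 8 of the 9 covered the whole 300 bp promoter of the table, Timm17b covering 280 bp. Among genes longer than 3 kb, 7 of 8 such genes had a peak at the start alone, where 91.3% of all 2344 protein-coding genes with a peak did, so this position is that of peaks in general.

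**Figure D3:**
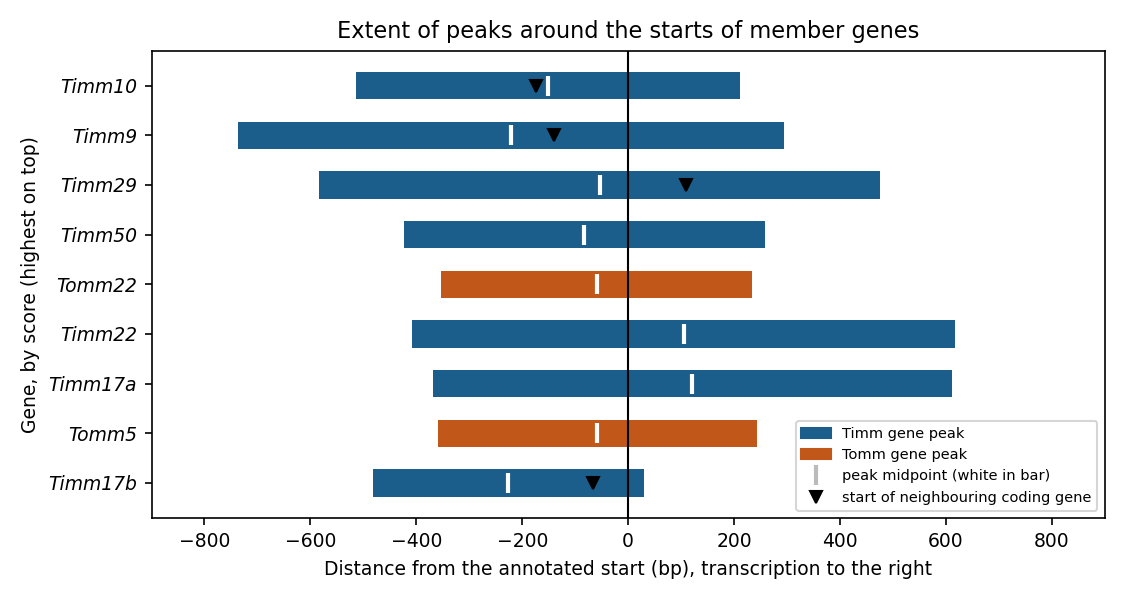
Extent of the 9 peaks that lie over a known start of transcription (x axis, bp from the annotated start of the Timm or Tomm gene, transcription to the right), ordered by score with the highest on top; white ticks are midpoints and black triangles the starts of neighbouring coding genes reached by the same peak. Every bar crosses 0, and in Timm10, Timm9, Timm29 and Timm17b the bar also covers the neighbour's start.

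Of the 12 peaks 6 also reached an end of another protein-coding gene (50%), where 24.9% of the 2466 peaks at protein-coding gene ends did, and these 6 were at 5 Timm genes and at Tomm40l. At mitochondrial ribosomal protein genes 55.6% of 36 peaks were shared, and at respiratory chain and ATP synthase genes 45.9% of 37. In 4 cases the peak covered the outer starts of a pair of genes on opposite strands. A start here is the outermost end on the side where transcription begins, and for Smtnl1 the RefSeq promoter entry gives another start, 4.20 kb further in. Timm10 and Smtnl1, a smoothelin-like gene, start 174 bp apart, and the midpoint of the peak of score 193 lay 22.5 bp from the start of Smtnl1 and 151.5 bp from that of Timm10. Timm9 and 2700049A03Rik start 140 bp apart under the peak of score 172, whose midpoint was 80.5 bp from the start of 2700049A03Rik and 220.5 bp from the Timm9 start. In both pairs the midpoint was nearer to the neighbour, as it was in the Timm17b pair below, but not in that of Timm29.

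The starts of Timm29 and Yipf2, a gene of Golgi membrane traffic, are 109 bp apart in overlapping orientation, so that each start lies inside the other gene. The midpoint was 54 bp from the start of Timm29 and 163 bp from that of Yipf2. Timm17b and Pqbp1, a polyglutamine-binding protein gene, start 67 bp apart, with the midpoint 226.5 bp from the Timm17b start and 159.5 bp from the Pqbp1 start. For such peaks the list does not tell which gene of the pair the signal belongs to. The remaining cases were Timm44 with Ctxn1, described above, and Tomm40l with Apoa2, an apolipoprotein gene. The Tomm40l peak covered an end of Tomm40l and lay inside Apoa2, its near edge 652 bp from the RefSeq start of Apoa2. The Timm50 peak also reached the lncRNA gene Gm51445.

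Genes arranged this way did not always carry a peak. Of 22 genes with a promoter entry, 7 have the start of another coding gene on the opposite strand within 174 bp: Timm10b with Arfip2 (29 bp), Timm23 with Parg (39 bp), Timm8b with Sdhd (52 bp) and the 4 pairs above. Those with Arfip2, Parg and Sdhd, the last a pair with a subunit gene of respiratory complex II, had no peak. Another coding gene end lay within 1 kb of the start in 10 of the 22 genes (45.5%), where it did in 15.3% of all protein-coding genes. Of these 10 genes 4 carried a peak at the start (40%), and of the other 12 genes 5 did (41.7%). Over all protein-coding genes the same shares were 31.7% with a close neighbour and 11.0% without.

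Shared peaks scored from 62.6 to 193 with a median of 133 (n = 6), and peaks at 1 gene alone from 63.6 to 148 with a median of 86.8 (n = 6). The ranges overlap below 148, and 3 of the 6 shared peaks (Timm10, Timm9 and Timm29) scored above every unshared one. Over all peaks at protein-coding gene ends the medians were 77.0 for the 614 shared and 73.6 for the 1852 unshared peaks. Median widths were 923.5 bp for the 6 shared peaks and 767.5 bp for the 6 others, beside 873 and 760 bp over all such peaks.

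**Figure D4:**
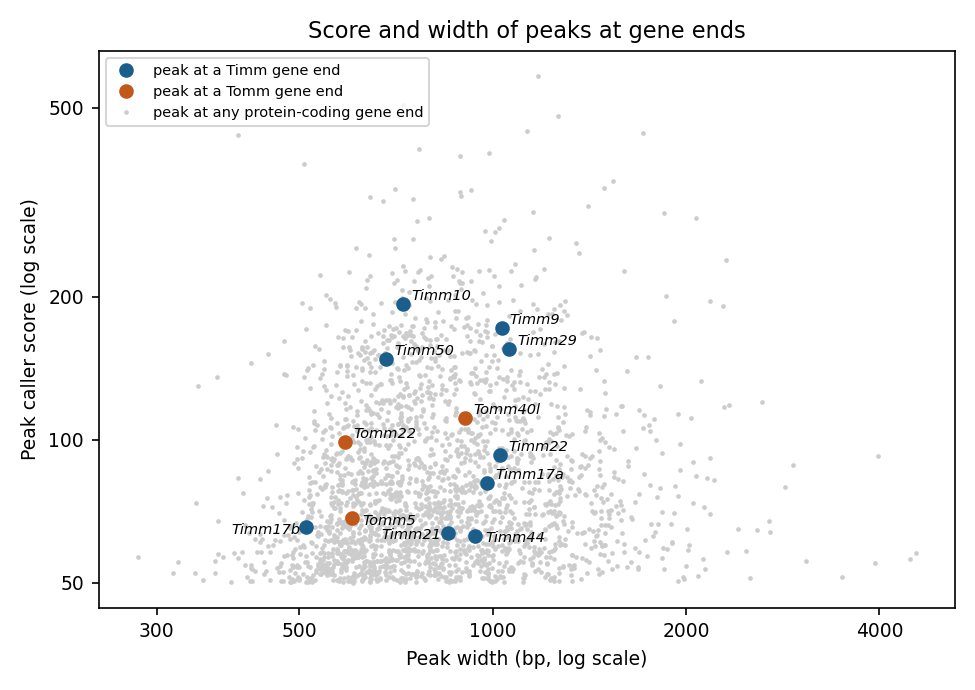
Score (y axis, log scale, no unit) against width (x axis, bp, log scale) of the 12 peaks at Timm and Tomm gene ends, over the 2466 peaks at any protein-coding gene end in grey. The 12 peaks lie within the grey cloud, between 512 and 1061 bp and between scores of 62.6 and 193.

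Scores at Timm genes ran from 62.6 to 193 (median 92.7, n = 9) and at Tomm genes from 68.2 to 111 (median 98.8, n = 3). The highest 4 scores were all at Timm genes, but the medians differed by little beside the ranges, which overlap. Peaks at Timm genes were 512 to 1061 bp wide (median 940 bp) and those at Tomm genes 588 to 907 bp (median 603 bp), again with overlap. Over the 12 peaks the median score was 95.7 and the median width 880 bp, against 74.4 and 788.5 bp over all peaks at protein-coding gene ends. Of the 12, 8 scored above that median score and 7 were wider than that median width. The same 8 were at or above the median of the whole list, 70.1: counting such peaks alone, 8 of the 25 genes carried one (32.0%), where 7.99% of all protein-coding genes did. Score and width did not go together in every case: Timm10, with the highest score, was narrower than the median, and Timm44, with the lowest score, was wider.

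CpG is the dinucleotide that marks most promoters of widely expressed genes. The promoters of the import translocase genes held more of it at the median than all protein-coding promoters, though not in every gene. Over the 300 bases of the promoter table, the 22 matched genes held 7 to 35 CpG (median 19), where all 17492 protein-coding promoters had a median of 13. Those with a peak at the start held 7 to 27 (median 16, n = 9), and those with none there, Timm44 among them, held 10 to 35 (median 22, n = 13). The groups overlap, and the 2 highest counts, 35 at Timm23 and 34 at Timm8a1, belonged to genes without a peak, while the lowest, 7 at Tomm5, belonged to a gene with one. Over all protein-coding genes the order was the other way round, with a median of 22 in promoters with a peak and 10 in those without.

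When all promoters were divided by CpG count at the quartiles, 0.503, 8.69, 25.1 and 21.6% of promoters from the lowest to the highest of the 4 groups had a peak. None of the 22 genes fell in the lowest group. In the following groups, 2 of 5, 5 of 12 and 2 of 5 genes carried one. Each of these counts is small, and the share of genes with a peak in each stood above that of all promoters in the same group.

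**Figure D5:**
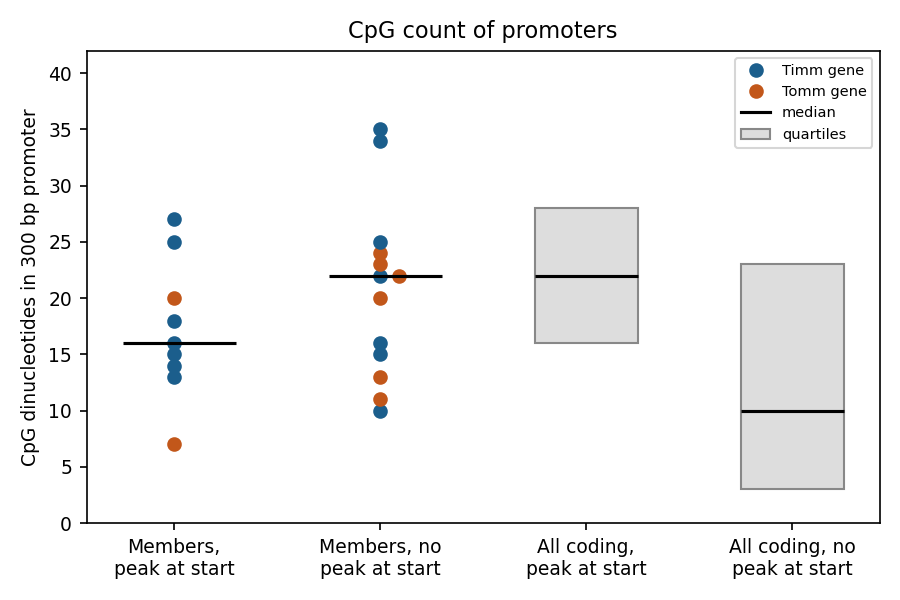
CpG dinucleotides per 300 bp promoter (y axis) for the 9 Timm and Tomm genes with a peak at the start, the 13 without, and all protein-coding promoters with and without a peak; points are genes, black lines medians and grey boxes quartiles. The median is 16 in members with a peak and 22 in members without, while over all promoters it is 22 with a peak and 10 without.

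Among the 22 promoters the ETS letters were found in 9 (40.9%), where 11.9% of all protein-coding promoters hold them, and in 26.1% of all promoters with a peak against 9.60% of those without. The 9 split into 3 of 9 genes with a peak at the start (Timm10, Timm29 and Tomm22) and 6 of 13 genes with none there (Timm8a2, Timm8b, Timm10b, Timm23, Tomm34 and Tomm70a). The NRF1 letters stood in Timm8b and Tomm20, both without a peak, and in 6.60% of all promoters. Over all promoters the order was the other way, with 11.1% of those with a peak and 5.87% of those without. CCAAT was found in 7 of 22, of which 3 had a peak at the start (Timm17a, Timm17b and Timm50) and a further one, Timm44, had the peak near its other end, beside 39.0% of all promoters. The YY1 letters were in Timm50 alone, beside 3.22% of all promoters (6.71% of those with a peak and 2.66% of those without). TATAAA was found in Tomm5 and Timm13, both times on the reverse strand more than 200 bases before the start, beside 13.3% of all promoters.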

How the data were processed

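Chromatin was sheared to about 200 bp. The 1 deposited list of peaks was made with MACS in Galaxy, per the file headers. Bowtie, Picard and the build mm10 stand in the submitters' processing notes, with no versions. How MACS was set and whether it used the IgG library is not given in the sources used here. Each peak's score is a value of the authors' peak caller on an unstated scale, and it was used only to describe and rank peaks within this list. Depth is unknown.

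Starts were made 1-based. Genes came from RefSeq's GRCm38.p6 table (mm10 is the same assembly), and strand and sequence from its promoter table (250 bases before to 50 after the start; the first entry per gene for composition and motifs). Where a gene has several starts, the entry's start can differ from the gene's outer end, by up to 33 bp in the matched genes other than Timm8a2 (7.00 kb). The overlap code was tested on simulated peaks. Every member was named, and the other import genes by a fixed list; members and lists were chosen with earlier results of these data known. The ZBTB33 motif and TGACGTCA (CRE) were searched too and found in none of the 22 promoters. Intervals are exact Clopper-Pearson intervals from SciPy 1.17.1, cover counting error only, and Python 3.11.15 with pandas 2.3.3 was used. Alternatives varied the window, the overlap, the score minimum, merging, the start alone, small RNA genes and the sex chromosomes.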

Additional observations from a re-analysis of the deposited data

How the results depend on the processing

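Of 25 genes, 12 carried a peak with windows of 500 bp, with at least 50% of a peak required in the window, with the midpoint in the window, with peaks within 1 kb merged and when peaks near genes for tRNA, snRNA and snoRNA were dropped, and 13 with a window of 5 kb, which adds Tomm34. Over all protein-coding genes the share was 13.0% with 500 bp, 13.1% with at least 50% or the midpoint in the window, 13.5% without the small RNA genes' peaks and 18.3% with 5 kb. Without chromosomes X and Y, 11 of 23 did, beside 14.5% of all. With the peaks at or above the median score 8 of 25 did (32.0%), beside 1749 of all protein-coding genes (7.99%) in place of 3033. The same setting left 4 of 23 other import genes in place of 9. Counting starts alone, 9 of the 22 matched genes carried a peak (40.9%), beside 14.2% of all genes with an entry, and 3 of these 9 peaks were shared in place of 6 of 12. By its construction that setting drops the Timm44 peak and, with no entry, Timm21 and Tomm40l. The Timm10 peak is not shared there, since the Smtnl1 entry starts 4.20 kb inside that gene. Shared peaks were 5 of 12 with 500 bp, with at least 50% of a peak or with the midpoint in the window. With a window of 5 kb they were 9 of 13, so this count depends on the window. No share over all peaks is given here for these alternatives. The Timm genes stood at 6 to 9 and the Tomm genes at 2 to 4 under all 9 alternatives, and the median score at 92.7 to 129. With peaks at or above the median score these were 6 of 15 and 2 of 10 (7.99% of all protein-coding genes). Counting starts alone they were 7 of 14 and 2 of 8 (14.2% of all), and with 5 kb 9 of 15 and 4 of 10 (18.3% of all). No paired analysis was possible because each antibody has 1 library. The limits are the score floor, unknown depth, no replicate and no IgG values.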

Other observations

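Over all protein-coding genes with a promoter entry, the palindrome bound by ZBTB33 stood in 3.78% of the 2431 promoters with a peak at the start (92 promoters) and in 0.22% of the 15061 without (33 promoters). The ETS, NRF1 and YY1 letters were also more frequent in promoters with a peak, with the shares given above. TGACGTCA (CRE) stood in 3.83% of promoters with a peak and 2.10% of those without. TATAAA went the other way, in 6.91% of promoters with a peak and 14.4% of those without. CCAAT stood in 38.3% and 39.2%. The median CpG count was 22 in promoters with a peak and 10 in those without, and the motif shares were not matched for it. These shares are descriptions of 1 peak list and were not tested, and none of the 22 import translocase promoters held the ZBTB33 letters.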
